A study of Homo sapiens with 12 samples.

Results

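Tet21N neuroblastoma cells treated to deplete both N-Myc and MondoA were compared with cells in which neither was targeted, across all genes detected on the arrays. The double-loss group (siMondoA, Myc off) received an siRNA against MondoA and 1 microgram/ml doxycycline for 3 days. The intact group (siControl, Myc on) received a non-specific siRNA and no doxycycline. Each group had 3 arrays, so the comparison rests on 6 of the 12 arrays of the series. The other 6 carried a single change: the MondoA siRNA without doxycycline (siMondoA, Myc on) or doxycycline with the non-specific siRNA (siControl, Myc off). Those groups were used for 1 further question, whether the double loss equals the sum of the single changes. The series title frames the work around the need of deregulated Myc for MondoA in metabolism.

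All groups are Tet21N cells, a human neuroblastoma line in which doxycycline shuts down transgenic N-Myc. Every Myc-off array came from drug-treated cells, so effects of the drug and of N-Myc loss cannot be told apart. Whether replicates came from separate cultures is not given, so p-values cover array-to-array spread that may be only technical. In bulk RNA, fewer cells of a kind and less RNA per cell cannot be told apart.

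N-Myc is a transcription factor that binds DNA with its partner MAX at E-boxes, and in neuroblastoma it drives growth, ribosome production, nucleotide synthesis and cell division. MondoA, encoded by MLXIP, belongs to the same extended family and pairs with MLX. It moves to the nucleus when glucose-derived metabolites build up and activates genes such as TXNIP and ARRDC4 through paired E-box-like elements called carbohydrate response elements. Both networks bind related sequences and both govern how a cell takes up and uses nutrients.

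The probes for MLXIP were detected on 1 of 12 arrays (in the siControl, Myc-on group), those for MYCN on 0 and those for ARRDC4 on at most 1, so the targeted genes could not check the labels. Between 18752 and 19030 probes were detected per array in the siMondoA, Myc-off group, against 18521 to 19190 in the siControl, Myc-on group. Over the 12178 genes tested, Pearson's r between replicates was 0.9863 to 0.9916, and arrays of the double-loss group correlated with those of the intact group at r = 0.9448 to 0.9491. Of 24 adrenergic neuroblastoma markers, 10 were detected on at least 3 arrays (CHGB, GAP43, GATA2, GATA3, HAND2, INSM1, ISL1, KLF7, SCG2 and TBX2) and 8 on none. Of 23 mesenchymal neuroblastoma markers, 20 were detected. Of 15 markers of blood, endothelium and epithelium, 4 were detected (CD14, CD68, EPCAM and PECAM1) and 8 were detected on none.

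TXNIP, which encodes the thioredoxin-interacting protein that limits glucose uptake, is the best-known MondoA target. The 250 bases before its annotated start are shown because they hold the paired element through which MondoA is known to act, read from RefSeq on GRCh38.p14, minus strand of chr1:145996580-145996829. Capitals mark the 2 copies of CACGNG, separated by 5 bases, which begin at position -88 from the start.
TXNIP promoter: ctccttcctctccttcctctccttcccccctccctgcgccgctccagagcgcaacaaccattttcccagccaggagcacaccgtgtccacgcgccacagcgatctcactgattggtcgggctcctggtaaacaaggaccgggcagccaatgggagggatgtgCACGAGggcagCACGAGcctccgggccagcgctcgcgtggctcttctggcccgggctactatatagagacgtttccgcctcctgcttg
This arrangement, searched on both strands, was found in 20 of 27305 promoters in the RefSeq table (0.0732%) and in 15 of the 9742 genes tested that have a promoter there.

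TXNIP fell further than any other named gene. Its log2 level was 6.72, 6.73 and 6.55 on the siMondoA, Myc-off arrays, against 11.26, 11.29 and 11.36 on the siControl, Myc-on arrays. The groups lay far apart, a 24.9-fold decrease (log2 change -4.64 ± 0.12, SE, n = 3 each, adjusted p = 1.61e-10). Of the 15 tested genes with the paired element, 10 were higher, among them PPP2R3C (1.22), MTHFS (1.19), GFPT1 (0.96) and STX12 (0.90). TXNIP, MYL5 (-0.48) and RAN (-0.25) were lower, and HSPBAP1 and RCN3 did not pass. Of all 9742 tested genes with a promoter in the table, 2512 were higher and 2202 lower. Of the 6 MondoA and ChREBP targets tested, TXNIP and the hexokinase gene HK2 (-0.59) were lower, KLF10 (0.52) was higher and 3 did not pass. Other probes of both did not pass (0.42 for HK2, -0.41 and 0.11 for KLF10), and with the mean of probes neither gene did (HK2 -0.08, adjusted p = 0.711; KLF10 0.07, adjusted p = 0.716). KLF10 also lost its call with the replicate block (adjusted p = 0.0571). MondoA knockdown with Myc on gave TXNIP a log2 change of -3.35 and doxycycline with siControl gave -0.22, so the double loss lay below their sum by 1.07 ± 0.16 on the log2 scale (departure -1.07, adjusted p = 0.00217).

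MYC, the gene of the relative c-Myc, went the other way. Its log2 level was 8.97, 8.99 and 8.84 on the siMondoA, Myc-off arrays, against 6.31, 5.89 and 6.26 on the siControl, Myc-on arrays, without overlap. The change was 2.78 ± 0.13 (6.88-fold, adjusted p = 1.78e-08). A second MYC probe was at 7.47, 7.40 and 7.32 in siMondoA, Myc-off cells and was not detected on any siControl, Myc-on array, so it gives no exact difference. The single changes were 1.78 for the knockdown and 2.95 for doxycycline, so c-Myc RNA in the double loss was 1.95 ± 0.19 below their sum on the log2 scale (departure -1.95, adjusted p = 7.69e-05). "Myc off" thus refers to N-Myc and does not describe this transcript.

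The double loss changed 5837 of the 12178 genes tested, 47.9% (limma, Benjamini-Hochberg adjusted p under 0.05). Of these, 3029 were higher (24.9% of genes tested) and 2808 lower (23.1%). The arrays of both groups did not overlap for 6674 genes (54.8%). A change of at least 2-fold was called for 1354 genes (11.1%), 645 higher and 709 lower, and one of at least 4-fold for 124, 67 higher and 57 lower. For scale, MondoA knockdown with Myc on called 24.8% of genes and doxycycline with siControl 30.9%, each against the same siControl, Myc-on arrays. The median log2 change over all genes was 0.04.

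MMP3, which encodes the matrix protease stromelysin, rose furthest. Its log2 level was 13.39, 12.96 and 13.35 in siMondoA, Myc-off cells, against 7.91, 7.70 and 7.57 in siControl, Myc-on cells, a 45.4-fold difference (5.50 ± 0.17, adjusted p = 8.24e-10). Both single changes raised it as well, by 4.03 with the knockdown and 2.63 with doxycycline. RAB27B, a small GTPase of vesicle secretion, stood at 11.04, 10.74 and 11.16 in siMondoA, Myc-off cells and 7.16, 6.94 and 7.32 in siControl, Myc-on cells (3.84 ± 0.14). Its dimmer second probe did not pass (0.46, adjusted p = 0.161). Among secreted signals, NTS, the neuropeptide neurotensin, rose by 3.36 ± 0.18. NDP, the Wnt-pathway ligand norrin, rose by 3.18 ± 0.14, and CXCL1, a neutrophil-attracting chemokine, by 2.89 ± 0.28. NDP, CXCL1 and SLCO2B1 were each detected on 2 of the 3 siControl, Myc-on arrays. SLCO2B1, an organic anion transporter, rose by 3.27 ± 0.16 (second probe 2.21), ATOH8, a transcription factor, by 3.11 ± 0.16. GCNT3, a mucin-type glycosyltransferase, was not above background in siControl, Myc-on cells and was at least 5.17-fold higher in the double loss (adjusted p = 1.08e-08).

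Replication-dependent histone genes supplied 6 of the 15 highest genes, beside the variant histone gene H2AJ. These genes encode the core and linker histones that package newly made DNA, and their transcripts normally lack poly(A) tails. H4C8 was at 8.92, 8.99 and 8.82 in siMondoA, Myc-off cells and not above background in siControl, Myc-on cells, at least 13.3-fold higher. H2AC18 was at 10.99, 11.02 and 11.32 in siMondoA, Myc-off cells and 7.52, 7.56 and 7.56 in siControl, Myc-on cells (3.56 ± 0.12, adjusted p = 1.04e-09). Neither gene's groups overlapped. H2AJ rose by 3.43 ± 0.12, H2AC19 by 3.32 ± 0.16, H2AC20 by 3.05 ± 0.15, H2BC21 by 3.05 ± 0.15 and the linker histone H1-2 by 2.89 ± 0.16. Of the 57 replication-dependent histone genes listed, 35 were tested: 28 were higher, H4C3 was lower and 6 did not pass, with a median change of 1.47. That median was 0.53 in the authors' deposited log2 values (26 higher, 1 lower) and 2.47 over the 16 members detected on all 12 arrays. By single change the median was 1.42 with the knockdown and 0.18 with doxycycline. Histone copies are nearly identical, so which copy a probe reads is uncertain, and their rise stood beside a fall of the replication genes described below.

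Among the lowest genes, EEF1A2, a translation elongation factor, was at 6.91, 6.50 and 6.37 in siMondoA, Myc-off cells, against 10.03, 9.82 and 9.87 in siControl, Myc-on cells. The groups were separate by a wide margin (-3.31 ± 0.14, 9.93-fold lower, adjusted p = 9.69e-09). SERPINF1, the secreted antiangiogenic factor PEDF, changed by -3.20 ± 0.23 and was detected on 1 of the 3 double-loss arrays. JUP, the junction protein plakoglobin, changed by -3.02 ± 0.18, with smaller changes for its dimmer probes (-1.19 and -0.59). SLC7A2, a cationic amino acid transporter, changed by -2.86 ± 0.12, and TMEM30A, a subunit of lipid flippases, by -2.75 ± 0.25. SNCG, the synuclein gamma gene, changed by -2.72 ± 0.16, and SUCNR1, the succinate receptor, by -2.62 ± 0.13. GLRX5, a mitochondrial iron-sulfur cluster protein, was at 9.30, 9.39 and 9.47 in siMondoA, Myc-off cells and 12.12, 11.95 and 11.90 in siControl, Myc-on cells (-2.60 ± 0.10). COL12A1, a fibril-associated collagen, changed by -2.59 ± 0.13 and IMPA2, an inositol monophosphatase, by -2.46 ± 0.13. The remaining members of the lowest 15 were SNORD56 (-2.68), RDM1 (-2.57) and the interferon-induced IFITM1 (-2.48), each detected on 1 double-loss array, and TMEM119, which was not above background there and was at least 3.52-fold lower.

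**Figure D1:**
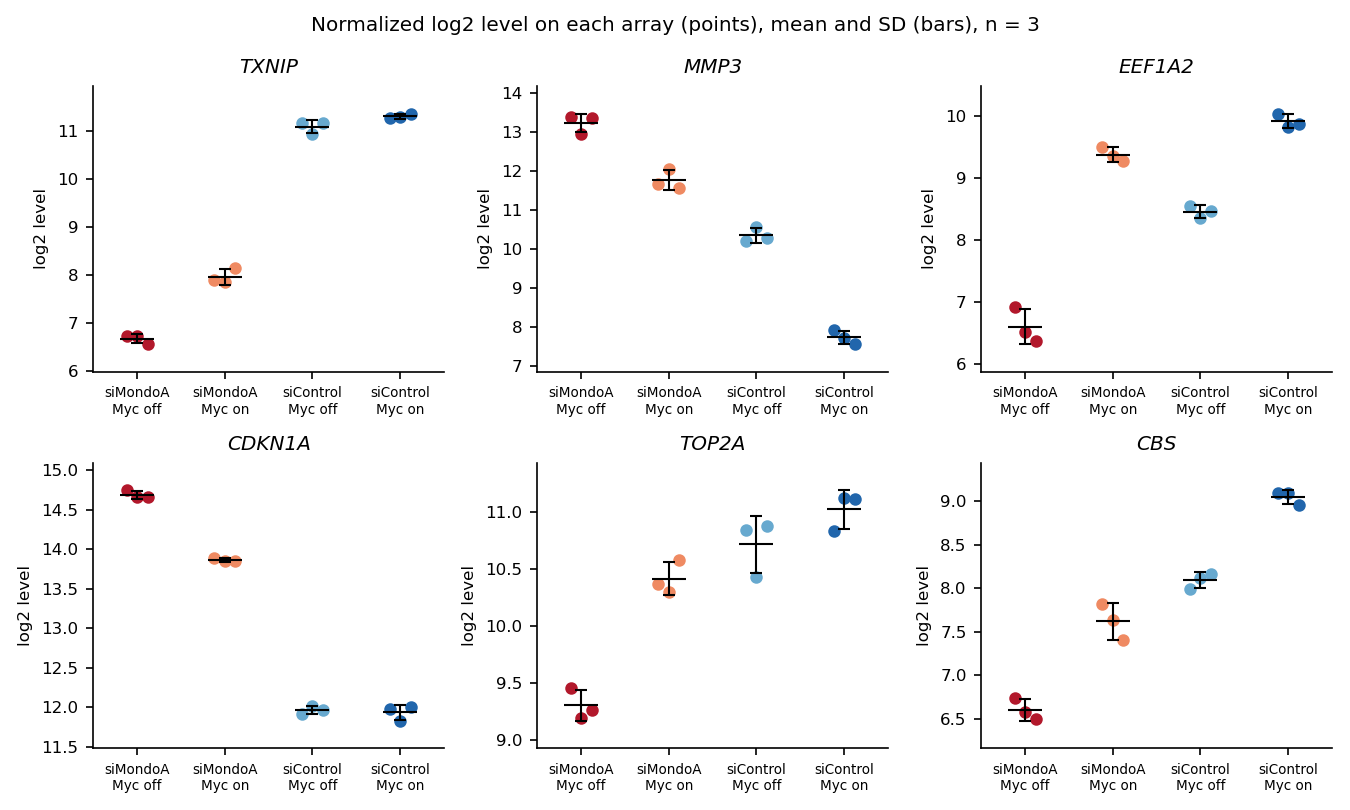
Normalized log2 level (y axis) of 6 genes on each array, by group (x axis); points are arrays, bars the mean and SD of 3 arrays. TXNIP, EEF1A2, TOP2A and CBS are lowest in siMondoA, Myc-off cells and MMP3 and CDKN1A highest, and the double-loss arrays do not overlap the siControl, Myc-on arrays in any of the 6.

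Genes of DNA replication fell almost as a block. Of 31 tested, 28 were lower, 0 higher and 3 did not pass (median -1.01). The medians of the single changes were -0.04 with the knockdown and -0.71 with doxycycline. PRIM1, the primase subunit that starts new strands, was at 8.16, 8.18 and 8.54 in siMondoA, Myc-off cells and 10.29, 10.02 and 10.19 in siControl, Myc-on cells (-1.87 ± 0.13, adjusted p = 3.69e-07). MCM10, an initiation factor, changed by -1.75 ± 0.16 (second probe -1.74), CDC45 by -1.67 and the helicase subunit MCM2 by -1.51. PCNA, the sliding clamp, did not pass (0.27, adjusted p = 0.0937).

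Mitotic genes fell to a like extent, 29 of 32 lower, 0 higher and 3 not passing (median -0.98), but their single changes were small, with medians of -0.06 and -0.34. TOP2A, which untangles sister chromatids, was at 9.46, 9.19 and 9.26 in siMondoA, Myc-off cells, against 10.83, 11.12 and 11.11 in siControl, Myc-on cells (-1.72 ± 0.15, adjusted p = 1.6e-06). The mitotic kinase gene AURKB changed by -1.81 ± 0.13, KIF20A, a cytokinesis motor, by -1.65 and the proliferation marker MKI67 by -1.48 ± 0.17. PLK1, NDC80 and the mitotic transcription factor FOXM1 (-0.06) did not pass.

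Nucleotide synthesis followed the same direction, 18 of 21 lower, 0 higher and 3 not passing (UMPS, PPAT and TYMS), with a median of -0.59. CAD, which starts pyrimidine synthesis, was at 7.83, 8.12 and 8.08 in siMondoA, Myc-off cells and 9.33, 9.44 and 9.10 in siControl, Myc-on cells (-1.28 ± 0.13, adjusted p = 6.87e-06). PFAS and ADSL of the purine pathway changed by -1.05 and -0.93, and the ribonucleotide reductase subunit RRM2 by -0.91. Of serine and one-carbon genes, 6 of 9 were lower and 3 did not pass (median -0.59), led by PHGDH, which opens the serine pathway, at -1.41 ± 0.11. SHMT1 was at -1.38 ± 0.11, while its dimmer probes gave -0.94 and 0.07.

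Of the MYC-induced nucleolar genes, which build ribosomes, 11 of 27 were lower, 0 higher and 16 did not pass (median -0.28). The single changes opposed each other, with medians of 0.25 for the knockdown and -0.52 for doxycycline. NOP56, a small nucleolar RNP protein, changed by -1.25 ± 0.12 and DKC1, the pseudouridine synthase dyskerin, by -0.94. Of mitochondrial ribosomal protein genes, 12 of 73 were lower, 11 higher and 50 did not pass.

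The E-box CACGTG, a palindrome that Myc and MAX bind, was looked up in the same promoter table, on windows from 250 bases before the start into the first bases after it. It was present in 7.43% of all promoters, 10.3% of those of genes tested, 11.8% of those of genes lower in the double loss and 10.2% of those of genes higher. For genes changed at least 2-fold the shares were 9.81% of the lower and 9.91% of the higher, both under that of genes tested. Among the lists it was present in 10 of 22 nucleolar promoters (45.5%), 4 of 19 nucleotide synthesis promoters (21.1%), 6 of 21 lysosome promoters (28.6%) and 0 of 33 histone promoters. Windows of 66 bases around it are shown for 3 nucleotide synthesis genes and 1 replication gene, from RefSeq on GRCh38.p14 with the E-box in capitals: PPAT at chr4:56435762-56435827 (minus strand), ATIC at chr2:215311983-215312048 (plus), DHODH at chr16:72008555-72008620 (plus) and CHAF1A at chr19:4402551-4402616 (plus).
PPAT: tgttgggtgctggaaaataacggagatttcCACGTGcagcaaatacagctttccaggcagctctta
ATIC: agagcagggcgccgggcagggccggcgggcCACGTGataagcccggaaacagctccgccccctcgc
DHODH: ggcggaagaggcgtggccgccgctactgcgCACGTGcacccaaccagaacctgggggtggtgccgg
CHAF1A: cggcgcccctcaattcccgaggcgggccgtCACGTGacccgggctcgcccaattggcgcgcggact
These 4 genes shared the E-box and not the size of the change. They are only some of the 4 nucleotide synthesis, 5 replication and 10 nucleolar genes with the E-box, so nothing follows for the others. CHAF1A, a chromatin assembly factor, changed by -0.90, DHODH of pyrimidine synthesis by -0.88 and ATIC of purine synthesis by -0.54. PPAT, the committing enzyme of purine synthesis, did not pass (-0.17, adjusted p = 0.228), and lay above the sum of its single changes, 0.25 and -1.09.

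Genes for amino acid supply were more often lower than higher. Of 17 for glutamine and amino acid transport, 8 were lower, GOT1 was higher and 8 did not pass (median -0.44). SLC7A5, the leucine transporter subunit LAT1, was at 8.91, 8.92 and 8.90 in siMondoA, Myc-off cells and 10.63, 10.52 and 10.63 in siControl, Myc-on cells (-1.68 ± 0.10). The glutamine transporter SLC1A5 changed by -1.25. Of 21 ATF4 and amino acid stress genes, 12 were lower, 4 higher and 5 did not pass (median -0.35). CBS, of cysteine synthesis, was at 6.74, 6.57 and 6.49 in siMondoA, Myc-off cells, against 9.09, 9.09 and 8.95 in siControl, Myc-on cells (-2.44 ± 0.12). PCK2 (-2.08) and ASNS (-1.64) were lower too, while SESN2, an inhibitor of mTORC1 that p53 also activates, was higher (2.33 ± 0.23). Of aminoacyl-tRNA synthetase genes, 8 of 18 were lower, RARS1 was higher and 9 did not pass.

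p53 target genes rose: 14 of 22 were higher, CCNG1 and ZMAT3 were lower and 6 did not pass (median 0.80). For ZMAT3 the direction depends on the probe, -0.71 for the brightest and 0.94 and 1.34 for its other probes, which were higher (adjusted p = 0.000569 and 2.73e-06). With the mean of probes the list had 15 higher and 1 lower. CDKN1A, the cell cycle inhibitor p21, was at 14.75, 14.66 and 14.66 in siMondoA, Myc-off cells and 11.974, 11.832 and 12.001 in siControl, Myc-on cells (2.75 ± 0.09, adjusted p = 1.61e-09). Other members that rose were TP53I3 (2.37, second probe 0.49 without passing), PHLDA3 (1.65), RRM2B (1.54) and GADD45A (1.45). In the BCL2 family, which sets the threshold for apoptosis, 7 of 13 were higher, BCL2L11 was lower and 5 did not pass. BOK (1.53), BAK1 (1.12) and BAX (0.76, second probe 0.37 without passing) promote cell death, whereas BCL2 (0.93, its other probes 0.35 and 0.21 without passing), BCL2L1 (0.46) and MCL1 (0.31, second probe 0.35 without passing) restrain it.

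Lysosome and autophagy genes rose in 22 of 29 cases, fell in 4 (CTSB, SGSH, TPP1 and GLA) and did not pass in 3 (median 0.59). GPNMB, a lysosomal membrane glycoprotein, was at 10.88, 10.81 and 10.75 in siMondoA, Myc-off cells and 8.40, 8.44 and 8.23 in siControl, Myc-on cells (2.46 ± 0.14). The proton pump subunit ATP6V0D1 changed by 1.66 and the calcium channel MCOLN1 by 1.39. The single medians were -0.03 with the knockdown and 0.67 with doxycycline.

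Lipid and energy genes gave mixed results. Of 19 cholesterol synthesis genes, 9 were higher, 3 lower and 7 did not pass (median 0.37), with SC5D at 2.12 ± 0.16 and HMGCS1, which makes the precursor of mevalonate, at 2.00 ± 0.15. Their single medians were opposed, -0.36 with the knockdown and 0.56 with doxycycline. Of fatty acid synthesis genes, 2 of 15 were higher and 4 lower, among them the regulator SREBF1 (-0.94) and the desaturase SCD (-0.60). Glycolysis and lactate genes had 6 higher, 5 lower and 12 not passing of 23, with the glucose transporter SLC2A1 at -0.83 and PFKFB4 at 1.28. Of TCA cycle genes, 8 of 21 were higher and 3 lower, with IDH2 at -1.41 and IDH3G at 1.25. Of oxidative phosphorylation genes, 25 of 72 were higher, 7 lower and 40 did not pass (median 0.19). Their shares lay nearer the 24.9% and 23.1% of all genes than those of the replication, mitosis or histone lists did.

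Interferon response genes were higher in 15 of 27 cases, lower in 3 (IFITM1, BST2 and OAS3) and did not pass in 9 (median 0.39). IRF7, the transcription factor that amplifies the response, was at 6.67, 6.79 and 7.48 in siMondoA, Myc-off cells, against 5.25, 5.31 and 5.28 in siControl, Myc-on cells (1.70 ± 0.20). IFIT2 changed by 1.51 and ISG15, the ubiquitin-like modifier, by 1.20. In the HLA class I list 7 of 16 were higher, with TAP1 at 1.23, and 4 lower, with HLA-G at -1.23. TAPBP, or tapasin, was at -2.22 by its brightest probe and at 0.08 and 0.12 by its other probes, which did not pass. Of chemokine and cytokine genes 8 of 15 were higher, CXCL5 was lower and 6 did not pass, with the interleukin-8 gene CXCL8 at 2.52 ± 0.16. CXCL12 was higher by its brightest probe (0.64) and lower by another (-0.89, adjusted p = 0.000812), so its direction depends on the probe. Its dimmest probe did not pass (0.30). With the mean of probes the list had 6 higher and 1 lower.

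Extracellular matrix genes went both ways, 17 of 37 lower, 11 higher and 9 not passing (median -0.11). COL12A1, the proteoglycan BGN (-2.44) and CCN1 (-2.41) were lower, while MMP3, MMP14 (1.95) and TNC (1.45) were higher. The protease inhibitor TIMP2 was lower by its brightest probe (-1.80) and higher by its second (1.28, adjusted p = 4.82e-06), so its direction depends on the probe. Of YAP and TEAD targets, genes that respond to cell shape and contact, 8 of 24 were higher, 7 lower and 9 did not pass. Over all genes 24.9% were higher and 23.1% lower, and both shares of the YAP and TEAD list lay near these. NT5E stood at 1.82 and ANKRD1 at -1.76. Of the 20 mesenchymal markers tested, 10 were higher, led by the transcription factor SNAI2 (2.51 ± 0.12), and 3 lower, led by NOTCH3 (-1.84). Of the 10 adrenergic markers, 5 were higher and 0 lower, with the secretory granule genes SCG2 at 2.46 ± 0.12 and CHGB at 1.23. The summed level of the 22 adrenergic markers on the array, detected or not, was 3436 to 3542 in the double loss, 2846 to 2921 with the knockdown alone, 2252 to 2351 with doxycycline alone and 1858 to 1990 in siControl, Myc-on cells, so no groups overlapped. That of the 23 mesenchymal markers was 27360 to 27840 in the double loss, 27720 to 29720 with the knockdown alone, 33940 to 35500 with doxycycline alone and 22220 to 23360 in siControl, Myc-on cells. The part of these marker changes in the other results was not tested. Of the 4 markers of other cell types tested, EPCAM was higher (second probe 0.18 without passing), CD68 and PECAM1 were lower and CD14 did not pass. CD68 turned with the probe, -0.37 for the brightest and 1.14 and 1.31 for the others, and was at 0.69 with the mean of probes (adjusted p = 0.0014). The summed level of the 14 listed genes on the array was 862.8 to 990.1 in the double loss and 1010 to 1120 in siControl, Myc-on cells. Each gene enters that sum by its brightest probe, so CD68 enters by the probe that was lower (mean log2 level 9.23). The sum with its other probes was not tested. Of the 9 extended MYC network genes tested, MXD1 (0.71) and MXD4 (0.69), which antagonise Myc, and MYC were higher and MXD3 was lower (-1.08).

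**Figure D2:**
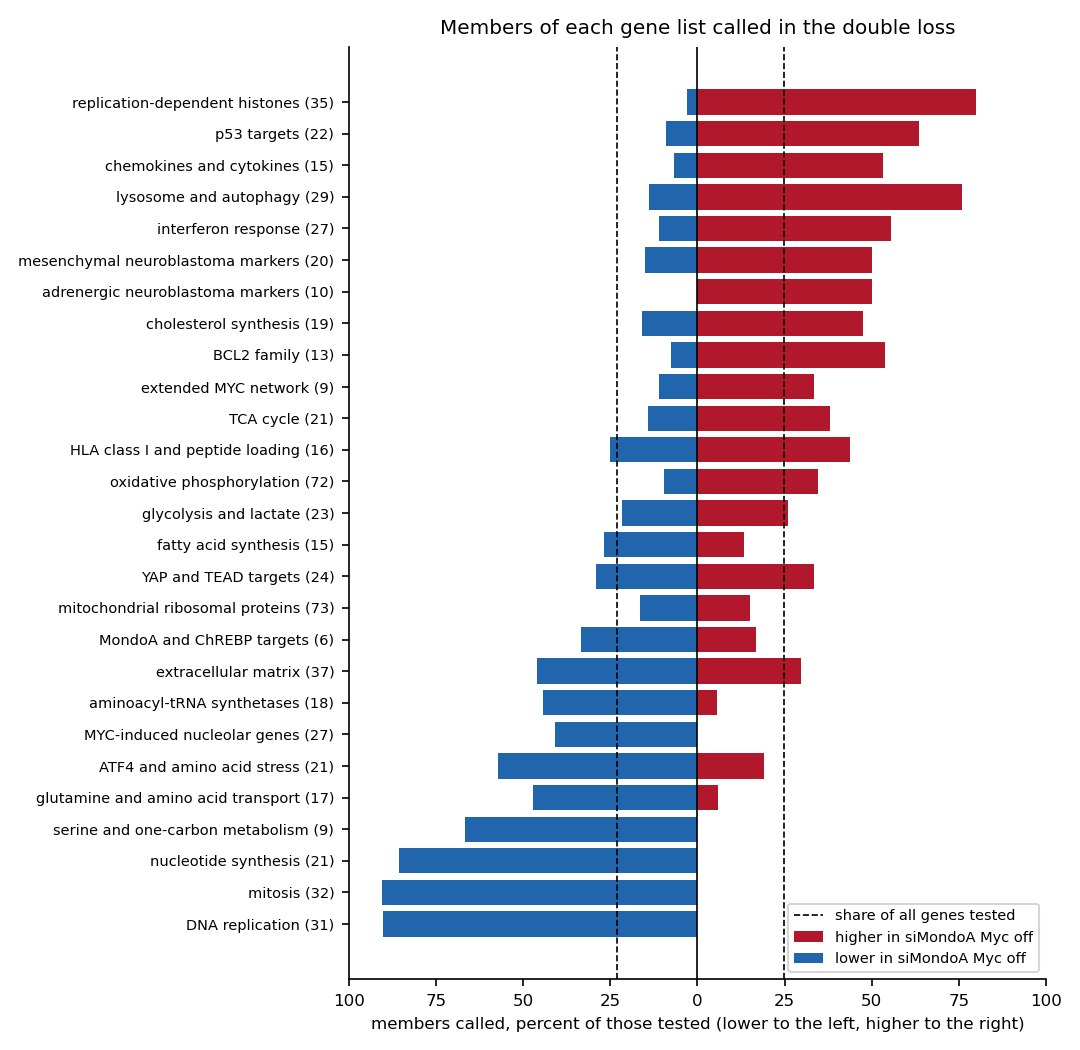
Share of the tested members of each gene list (x axis, percent; number tested in brackets) called higher (right) or lower (left) in siMondoA, Myc-off cells than in siControl, Myc-on cells, for lists with at least 5 members tested. Dashed lines mark the shares over all genes, 24.9% higher and 23.1% lower; the mitosis and DNA replication lists reach furthest left and the histone list furthest right.

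Whether the double loss equals the sum of the single changes was tested gene by gene. The departure is the double change minus the sum of the knockdown change with Myc on and the doxycycline change with siControl, on the log2 scale. The double and single changes share the siControl, Myc-on arrays, so their values are given side by side and not correlated. A departure was called for 1059 genes, 8.7%, of which 432 lay above the sum (3.55%) and 627 below (5.15%). The split between above and below depends on the scaling: the share above was 40.8% after quantile normalization, 45.9% in the authors' deposited log2 values, 5.91% with median scaling and 59.4% with equal medians over the genes tested. Median scaling moved the median departure of all genes to -0.27, against 0.00 after quantile normalization.

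Of the 5837 genes changed by the double loss, 731 (12.5%) also departed from the sum. Among the 1354 changed at least 2-fold, 288 departed (21.3%). Of the higher ones, 93 lay above the sum, 39 below and 513 did not depart. Of the lower ones, 143 lay below the sum, 13 above and 553 did not depart. The double change is the sum plus the departure, so choosing genes by a large double change favours departures of the same sign. These splits therefore support nothing by themselves, and they were counted after quantile normalization only. The median 95% interval of a departure, not adjusted for the number of genes, reached 0.46 to either side. A call after Benjamini-Hochberg adjustment asks for more, so departures of that size or smaller were mostly not detectable with 3 arrays a group. Not departing thus means only that no departure was called. Another 328 genes departed with no call in the double loss itself, 31% of those that departed.

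**Figure D3:**
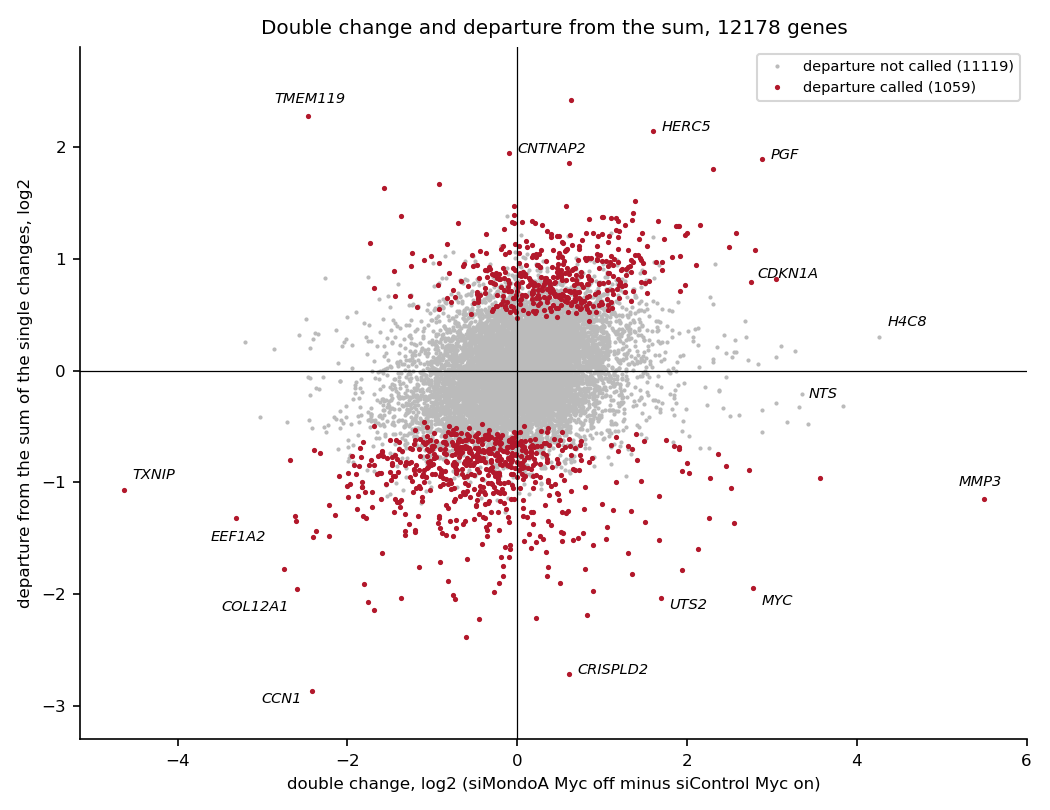
Departure from the sum of the single changes (y axis, log2) against the double change (x axis, log2, siMondoA, Myc off minus siControl, Myc on) for the 12178 genes tested; red points are the 1059 called departures. TXNIP and MMP3 lie at the ends of the x axis, and CCN1 and CRISPLD2 lowest on the y axis.

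Most of the deepest departures below the sum belonged to genes that doxycycline raised with siControl, with no rise called when MondoA was knocked down. CCN1, a matrix-bound growth regulator and YAP target, was at 7.32, 7.54 and 7.43 in siMondoA, Myc-off cells, at 8.26, 8.05 and 8.48 in siMondoA, Myc-on cells, at 11.766, 11.883 and 11.999 in siControl, Myc-off cells and at 9.70, 9.92 and 9.90 in siControl, Myc-on cells. Doxycycline raised it with siControl (2.04) and lowered it with siMondoA (-0.84, adjusted p = 0.00047). None of these groups overlapped, and the double change of -2.41 lay 2.87 ± 0.18 below the sum (departure -2.87, adjusted p = 7.45e-06). CCN2, its relative and also a YAP target, had single changes of -0.96 and 1.63 and a double change of -1.37 (departure -2.04 ± 0.15). HBEGF, a ligand of the EGF receptor, was at 6.19, 6.39 and 6.38 in siMondoA, Myc-off cells, at 8.57, 8.64 and 8.73 in siControl, Myc-off cells and at 6.70, 6.93 and 6.68 in siControl, Myc-on cells. It stood highest with doxycycline alone, and its departure was -2.23 ± 0.18. Likewise highest with doxycycline alone were CRISPLD2 (2.92 with doxycycline, 0.61 in the double loss, departure -2.71), DIO2, the thyroid hormone activating deiodinase (2.23, 0.22, departure -2.22) and the adhesion receptor ADGRG1 (1.42, -0.73, departure -2.05). ANKRD1, a muscle and YAP target gene, departed by -2.07, the keratin gene KRT8 by -2.39 and the hexokinase-like HKDC1 by -2.19. UTS2, the vasoactive peptide urotensin, differed from these, since the knockdown raised it (3.40) and the double loss left 1.69 (departure -2.04). Another UTS2 probe gave -1.93 and a dim one -0.23 without passing.

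Above the sum, HERC5, an ISG15 ligase, was at 9.31, 9.14 and 9.40 in siMondoA, Myc-off cells, at 7.77, 7.91 and 7.61 in siMondoA, Myc-on cells, at 7.01, 7.06 and 7.10 in siControl, Myc-off cells and at 7.79, 7.64 and 7.62 in siControl, Myc-on cells. It was high in the double loss alone (1.60 ± 0.11, departure 2.14 ± 0.16, adjusted p = 1.77e-05). PGF, the placental growth factor of the VEGF family, had single changes of 1.13 and -0.15 and a double change of 2.88 (departure 1.90 ± 0.31). RNF217, a ubiquitin ligase, departed by 1.42 and was higher in the double loss; other RNF217 probes gave departures of 0.61 and 0.92 without passing. CNTNAP2, a neuronal adhesion protein, was at 8.37, 8.31 and 8.49 in siMondoA, Myc-off cells, at 6.46, 6.23 and 6.47 in siControl, Myc-off cells and at 8.37, 8.43 and 8.65 in siControl, Myc-on cells. Its double-loss and intact arrays overlapped, and its departure of 1.95 ± 0.19 came with a fall under doxycycline alone (-2.10). RCOR2 (departure 1.63), GPRC5C (1.67), LGALSL (1.47), MTURN (1.47) and GALK2 (1.40) were likewise lower with doxycycline alone, by 2.35, 1.49, 1.16, 0.72 and 0.73 on the log2 scale. The knockdown with Myc on changed them by -0.85, -1.10, -0.35, -0.18 and -0.70 in the same order. In the double loss GPRC5C was lower (-0.92), MTURN was higher (0.57) and GALK2 did not pass (-0.03). Departures at other GALK2 probes did not pass (0.80 and -0.22).

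**Figure D4:**
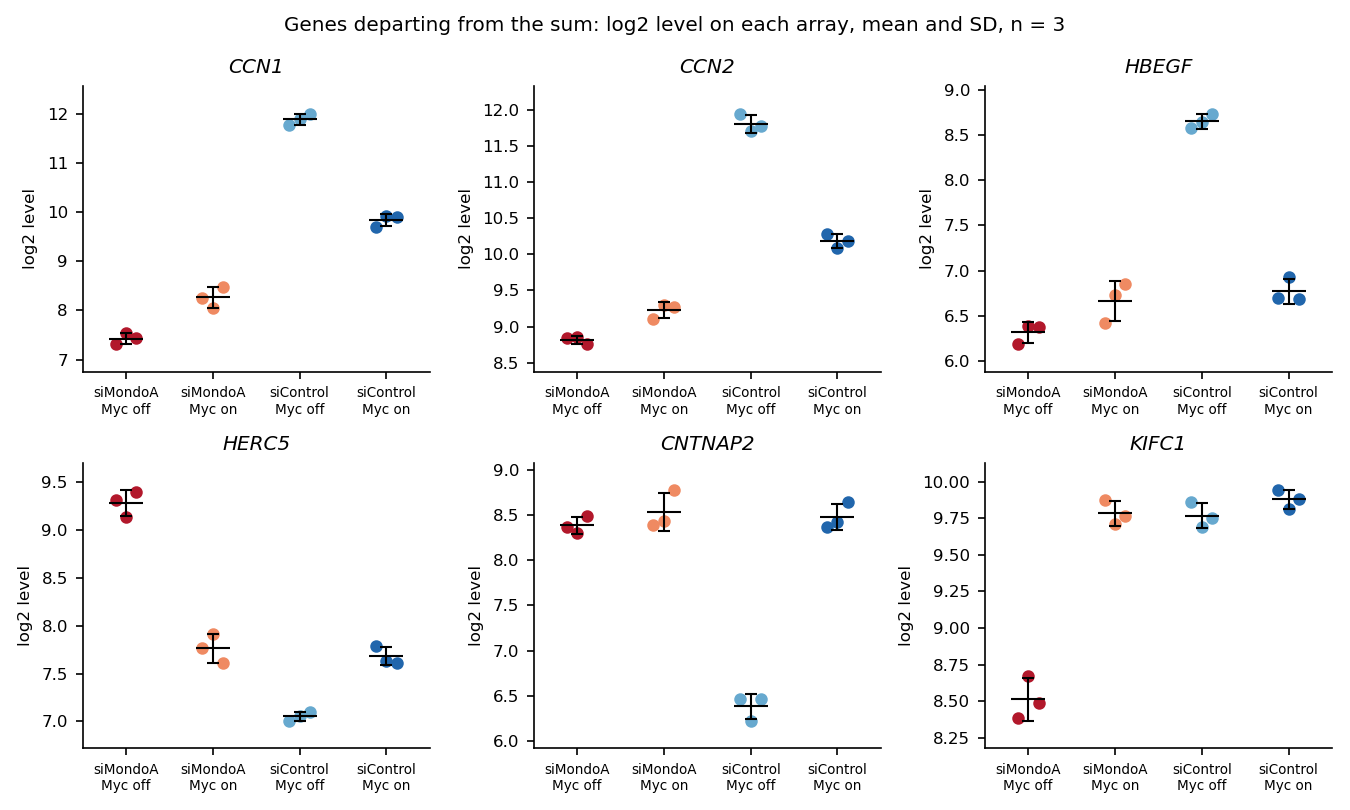
Normalized log2 level (y axis) of 6 genes called as departing from the sum, on each array by group (x axis); points are arrays, bars the mean and SD of 3 arrays. CCN1, CCN2 and HBEGF are highest with doxycycline and siControl, CNTNAP2 is lowest there, and HERC5 is highest and KIFC1 lowest in siMondoA, Myc-off cells.

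By list, 12 of the 32 mitosis genes lay below the sum and 0 above, with a median departure of -0.57. MKI67 departed by -0.84, BUB1, a spindle checkpoint kinase, by -0.94, KIF20A by -0.93 and the cyclin CCNA2 by -0.92. Of DNA replication genes 4 of 31 lay below and GINS3 above (median departure -0.24). The count below was 1 with the replicate block, 2 with equal medians over the genes tested and 9 with median scaling. Of p53 targets 8 of 22 lay above and 0 below (median departure 0.66): FAS, the death receptor (1.20), TIGAR (1.03), AEN (1.01), GADD45A (1.01), SESN1 (0.97), GDF15 (0.97), CDKN1A (0.79) and DDB2 (0.68). A second GADD45A probe gave 0.64 without passing. Of YAP and TEAD targets 8 of 24 lay below and GADD45A above, and of extracellular matrix genes 11 of 37 lay below, among them SPARC (-1.41), and VCAN and FBN2 above. TIMP2, counted below at -1.91, did not depart by its second probe (-0.11, adjusted p = 0.753). These shares stand beside 3.55% above and 5.15% below over all genes. Under the other 3 scalings the members called in the mitosis list ranged from 9 to 20 below and those in the p53 list from 3 to 11 above, with 0 the other way.

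Several other lists stood closer to the sum or moved with the scaling, and the chemokine and cytokine list did neither. Of interferon genes 5 of 27 lay above the sum (IFIH1, ISG20, OASL, ISG15 and IFIT2) and 0 below, but with median scaling 0 lay above and 1 below. Of oxidative phosphorylation genes 8 of 72 lay above and 2 below, against 0 and 3 with median scaling and 21 and 0 with equal medians over the genes tested. Of cholesterol synthesis genes, INSIG1 and HMGCS1 lay above (both 1.23), although a dim second INSIG1 probe gave -1.28. Of lysosome genes only TPP1 departed (-0.66) of 29, and of fatty acid synthesis genes 0 of 15 departed. Of the 15 chemokine and cytokine genes, LIF, CXCL12, ACKR3 and CXCL8 lay below and 0 above, with a median departure of -0.515. The count below was 4 with the deposited values, 4 with equal medians over the genes tested and 5 with median scaling, with 0 above in each. Of the 35 histone genes 4 lay below and H4C12 above, with a median double change of 1.47 and a median sum of 1.49.

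**Figure D5:**
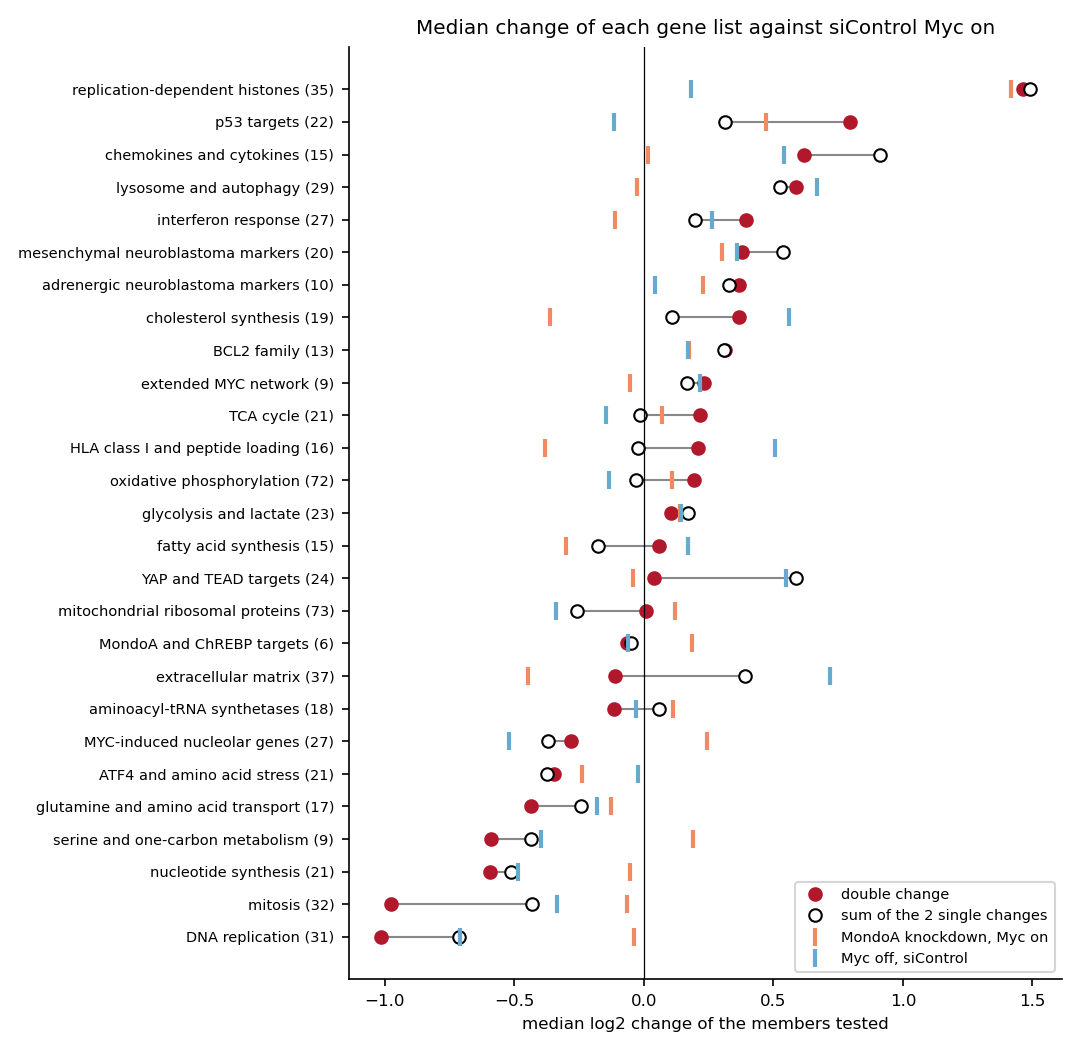
Median log2 change against siControl, Myc-on cells (x axis) of the tested members of each gene list (y axis, number tested in brackets) for the double loss (filled red), the sum of the single changes (open) and each single change (ticks). The double-loss point lies left of the sum for the mitosis, YAP and extracellular matrix lists and right of it for p53 targets, and the points meet for the histone list.

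Some genes lay close to the sum. They were chosen for that, so their departures are a description. CBS changed by -1.43 with the knockdown, -0.95 with doxycycline and -2.44 with both, a departure of -0.06 (95% interval -0.44 to 0.32). IMPA2 changed by -1.40, -1.01 and -2.46 (interval -0.46 to 0.35). TP53INP1, a p53-induced autophagy regulator, changed by 0.97, 0.85 and 1.80, ATP6V0D1 by 0.82, 0.89 and 1.66, the corepressor TLE4 by 0.76, 1.05 and 1.84, and STC1, a secreted calcium regulator, by 1.76, 1.02 and 2.84. Among genes called in the double loss and detected on all arrays, 86 had both single changes in the same direction and at least 0.75 in size. Of these, 25 departed, all short of the sum and 0 beyond it. The choice used single changes that enter the departure, so that direction supports nothing by itself.

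Where the single changes opposed each other, the double loss could end near the intact level. With both at least 1 on the log2 scale, 22 genes detected on all arrays qualified, all lower with the knockdown and higher with doxycycline. UBA7, the E1 enzyme for ISG15, was at 7.75, 7.91 and 7.75 in siMondoA, Myc-off cells, at 6.21, 6.40 and 6.25 in siMondoA, Myc-on cells, at 9.13, 8.99 and 9.14 in siControl, Myc-off cells and at 8.10, 7.65 and 7.99 in siControl, Myc-on cells. Its double-loss arrays overlapped the intact ones (-0.11 ± 0.13, adjusted p = 0.503). The complement proteases C1S and C1R had single changes of -1.47 and 2.15, and of -1.28 and 1.72. In the double loss C1S did not pass (-0.24, adjusted p = 0.107) and C1R was at -0.51. The amino acid transporter SLC43A2 (-1.71 and 1.63, together -0.24), PLAAT4 (-1.12 and 1.17, together 0.25) and P4HTM (-1.01 and 1.38, together -0.33) did not pass either. These 6 were chosen for a small double change. C1S, C1R and P4HTM were nonetheless called below the sum of their single changes (departures -0.92, -0.94 and -0.70). A second C1S probe departed by -2.08. The double-loss call of C1R was lost without siMondoA, Myc-off replicate 1 (limma adjusted p = 0.114). It was also lost without siControl, Myc-on replicate 1 (0.0809) or replicate 3 (0.0633).

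A further 148 genes detected on all arrays had both single changes under 0.3 in size and were called both in the double loss and as departures. Of these, 64 were higher and 84 lower. With single changes that small the departure lies close to the double change, so the calls are not independent of each other. The number of all genes with such small single changes was not counted, so no share is given. KIFC1, a mitotic kinesin, was at 8.38, 8.67 and 8.49 in siMondoA, Myc-off cells, at 9.88, 9.71 and 9.76 in siMondoA, Myc-on cells, at 9.86, 9.69 and 9.75 in siControl, Myc-off cells and at 9.94, 9.82 and 9.88 in siControl, Myc-on cells. The double-loss arrays lay below all others, and the double change was -1.37 ± 0.11 (departure -1.16, adjusted p = 0.000858). DLGAP5 (-1.26) and TACC3 (-1.22), both spindle assembly genes, and the actin regulator TWF2 (-1.27) showed the same order. Upward, SSBP2 changed by 1.26, FSIP1 by 1.35, TDO2, which degrades tryptophan, by 1.27 and NHLRC3 by 1.44. Dim second probes of TDO2 and NHLRC3 did not depart (-0.44 and -0.26).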

How the data were processed

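RNA was hybridised to 12 Illumina bead arrays after purification on RNeasy Plus columns, per the labels' protocols. The authors deposited probe intensities on a linear scale, by their values not background-subtracted, with a detection score, a fraction whose values run as 1 minus a detection p-value. Their deposited log2 table was found to equal the log2 of quantile-normalized intensities (largest difference 5.33e-14; own r at least 0.9993, other arrays at most 0.9942; column medians 7.0542 to 7.0555). The tool lumi is named per the submitters' processing notes; its version and step are not given in the sources used here.

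Of 47323 probes, 10 had no values; 30108 had 1 gene symbol, 8 several and 17197 none, and 30069 matched RefSeq. Intensities were normalized with neqc (limma 3.58.1, R 4.3.3, offset 16, controls inferred from detection p-values). Probes detected at p below 0.05 on at least 3 arrays were kept (22188, of which 16385 had 1 symbol), and the brightest probe stood for each of 3288 genes with several. Adjusted p-values of other probes were adjusted over probes. Genes not detected in a group got "at least" folds, which set the bright group's mean against a floor per array, the lowest detected signal or, if higher, the probe's value.

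Group means were fitted to all 12 arrays with lmFit and eBayes (residual degrees of freedom 8, prior 4.552), with Benjamini-Hochberg adjustment over all genes at 0.05. The median SE was 0.15 for the double change and 0.21 for the departure, and the number of arrays limits precision. The labels name no slide or scan, so no batch could be tested. They give the order of transfection and doxycycline in different ways. Deviations of same-numbered arrays did not run together between the double-loss and intact groups (r = -0.030, 0.021 and 0.0025), so the numbers were not taken as pairs. The fit was tested on simulated data.

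Genes were named by rule: MLXIP, MYCN, MYC, TXNIP and ARRDC4; the 15 highest and 15 lowest double changes among called, non-overlapping genes; the 10 highest and 10 lowest departures among genes detected on all arrays; 6 near the sum; 6 opposed; 8 with single changes under 0.3; and in each of the 28 lists up to 5 called members with the largest change, plus those a list is described by. One of the genes the rule gives is not reported here. The members and lists were chosen with earlier results of these data known. Alternatives were the deposited values, other scalings, offset, detection filter, probe choice, array weights, variance trend, replicate block, a fold threshold and left-out arrays.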

Additional observations from a re-analysis of the deposited data

Results flagged for a closer look

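The effect of MondoA knockdown differed between Myc off and Myc on for 1059 genes by limma's test of the difference itself, which equals the departure from the sum. For the genes named by that test, the difference (log2 change of the knockdown with Myc off minus that with Myc on) was positive for HERC5 (2.14), CNTNAP2 (1.95), PGF (1.90), GPRC5C (1.67), RCOR2 (1.63), LGALSL (1.47), MTURN (1.47), RNF217 (1.42) and GALK2 (1.40). It was negative for CCN1 (-2.87), CRISPLD2 (-2.71), KRT8 (-2.39), HBEGF (-2.23), DIO2 (-2.22), HKDC1 (-2.19), ANKRD1 (-2.07), ADGRG1 (-2.05), CCN2 (-2.04) and UTS2 (-2.04). All groups had 3 arrays, so no single array was tested as standing apart from its group.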

How the results depend on the processing

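The counts were recomputed under the alternatives and under 1 scaling chosen after seeing the data. With the replicate block, 5695 genes were called in the double loss and 904 as departures, and no count over all genes moved by over 1.5 times; P4HTM lost its departure call (adjusted p = 0.0728) and KLF10 and CD68 their double-loss calls (0.0571 and 0.0611). The deposited log2 values, which are not background-corrected, gave 419 genes of at least 2-fold, 1695 departures, 778 above the sum and 45.9% of departures above. An offset of 50 gave 784 of at least 2-fold. Median scaling gave 86 departures above and 1370 below (5.91% above), and equal medians over the genes tested gave 718 above (59.4%); the cause was not tested. After median scaling the median level of the genes tested was 7.39 to 7.44 in siMondoA, Myc-off arrays and 7.36 to 7.45 in siControl, Myc-on arrays, but 7.40 to 7.83 in siMondoA, Myc-on and 7.50 to 7.73 in siControl, Myc-off arrays. Variance trend with robust fitting gave 705 above. Requiring more than a log2 change of 0.5 gave 1622 double-loss genes (787 higher, 835 lower) and 91 departures (18 above, 73 below).

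Leaving out 1 array at a time gave 5077 to 5890 double-loss genes (2598 to 3045 higher, 2461 to 2845 lower), 1353 to 1449 of at least 2-fold, and 678 to 1142 departures (257 to 479 above, 411 to 663 below). Departures were 678 without siControl, Myc-on replicate 2, 686 without siControl, Myc-off replicate 3 and 694 without siMondoA, Myc-off replicate 1; without siMondoA, Myc-off replicate 3 those above were 287. Departures near 0 changed sign with the deposited values in IMPA2 (0.128), TP53INP1 (0.08), CBS (0.168), UBA7 (-0.063) and PLAAT4 (-0.043), with median scaling in TLE4 (-0.272), STC1 (-0.27) and PLAAT4 (-0.077), with offset 50 in IMPA2 (0.027), TP53INP1 (0.025) and CBS (0.06), with the mean of probes in TP53INP1 (0.031) and with equal medians in TP53INP1 (0.051) and ATP6V0D1 (0.064). With 1 array left out they ranged over 0 in IMPA2 (-0.15 to 0.062), TP53INP1 (-0.108 to 0.113), CBS (-0.172 to 0.037), TLE4 (-0.049 to 0.169), STC1 (-0.089 to 0.17) and ATP6V0D1 (-0.109 to 0.045). Double changes near 0 did so in GALK2 (0.119 with the mean of probes; -0.226 to 0.155 with 1 array left out) and LGALSL (0.022 with array weights; -0.139 to 0.133). CD68 changed sign with the mean of its probes (0.69, adjusted p = 0.0014), since its dimmer probes read 1.14 and 1.31. P4HTM and C1R lost their departure call without most single arrays. The deposited values moved several list medians by over 1.5 times. These included the histones (0.53, 1.47 after neqc), cholesterol synthesis (0.24, 0.37 after neqc) and chemokines and cytokines (0.21, 0.62 after neqc). The mesenchymal (0.22, 0.38 after neqc) and adrenergic (0.205, 0.366 after neqc) markers moved as well. So did lists with small medians, such as extracellular matrix (-0.07, -0.11 after neqc). Lists that the mean of probes moved as far included cholesterol synthesis (0.22), chemokines and cytokines (0.32) and the TCA cycle (0.08, 0.22 after neqc). NHLRC3, FSIP1 and SSBP2 lost their departure calls with median scaling (0.90, 0.76 and 0.44), and NHLRC3 and TDO2 with the mean of their probes (0.46 and 0.43). The number of arrays limits what departures can be seen.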
